A study of Mus musculus with 40 samples.

Results

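The right kidney that remained in place was compared 24 h after removal of the left kidney with the right kidney of sham-operated mice at the same time. All 12 bulk RNA-seq libraries that the labels give as right kidney at 24 h were taken, 6 after unilateral nephrectomy (UNx) and 6 after sham surgery, out of 40 samples in the series. The mice of both groups were male C57BL/6 of 8 to 12 weeks, and no genetic change is named for either. Both groups had isoflurane anaesthesia, an opening of the left side, saline and buprenorphine, with more pain relief as needed, so these are shared by the controls, and the shams kept both kidneys. Each library came from a cross-section of 1 kidney, a mixture of cell types, and the labels give each a mouse number of its own and put all 12 in batch 1. The other samples used here for comparison were the right kidneys of 48 h and 72 h, 12 each, and nuclei from 4 other mice at 24 h, 2 per group.

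When 1 kidney is lost the other takes over its filtration and transport load and enlarges, mostly by growth of existing tubule cells and to a smaller degree by cell division. Growth of a tubule cell needs membrane lipid, protein synthesis and mitochondrial fuel, and the pathways behind these are read here through their genes. Sterol synthesis genes are switched on by the factor SREBP2 when membrane cholesterol is low, while autophagy genes are switched on by FoxO and TFEB factors when growth signals are low.

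Promoter sequences are printed first because they belong to 3 of the gene groups that the results turn on. They are stretches of 60 bases upstream of the RefSeq transcription start in build GRCm38.p6, read along the gene's own strand, 5′ to 3′, with the motif in capitals. Only genes with a match are shown, and each of them was called higher. Most others with a match were not called, and in the replication group most of the genes with a match were not. Most members of each group had no match in the window searched. The motifs are the sterol element TCACNCCAC for cholesterol synthesis, the E2F motifs TTTCCCGC or TTTGGCGC for replication and, for chaperones, the endoplasmic reticulum stress element, which is CCAAT, 9 bases of any kind and CCACG. Both strands were searched, and a match on the other strand reads as the reverse complement.
Hmgcs1, sterol element, chr13:119690188-119690247, + strand: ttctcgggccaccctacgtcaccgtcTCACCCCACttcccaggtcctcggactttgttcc
Cdc6, E2F motif, chr11:98907987-98908046, + strand: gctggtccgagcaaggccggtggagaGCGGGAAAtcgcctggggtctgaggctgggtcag
Mcm6, E2F motif, chr1:128359719-128359778, - strand: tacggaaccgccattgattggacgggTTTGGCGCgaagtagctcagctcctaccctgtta
Hspa5, stress element, chr2:34772004-34772063, + strand: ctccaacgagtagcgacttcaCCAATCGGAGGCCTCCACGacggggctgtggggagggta
Creld2, stress element, chr15:88819499-88819558, + strand: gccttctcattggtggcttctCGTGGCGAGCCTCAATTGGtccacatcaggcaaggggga
Syvn1, stress element, chr19:6046511-6046570, + strand: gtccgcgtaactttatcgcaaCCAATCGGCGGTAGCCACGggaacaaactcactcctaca
Pdia6, stress element, chr12:17266470-17266529, + strand: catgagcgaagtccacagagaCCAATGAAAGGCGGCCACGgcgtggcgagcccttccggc

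Levels are given as counts per M (CPM) of library size after TMM scaling, and differences as log2 fold changes of UNx over sham, so that 1 is a doubling. The 12 libraries held between 14.9 and 24.1 M estimated counts (M stands for 1000000). Of 14104 genes tested, 3852 were called at an adjusted p under 0.05 in edgeR, which is 27.3% of them. Called higher in UNx were 2001 genes, 14.2%, and called lower 1851, 13.1%, and these shares are the background for every gene list below. The called changes were small, with a median size of 0.33 on the log2 scale and an interquartile range of 0.24 to 0.45, and 123 genes passed a size of 1, of which 78 were higher. In 1462 genes, 10.4% of those tested, the 6 UNx libraries and the 6 shams did not overlap. Nothing in the labels says whether the mice were housed or operated together, so p-values measure the spread between these mice.

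Several properties of the libraries differed with surgery. A profile score was made from 95 pseudogenes. Its axis runs from the mean of the 48 h and 72 h shams to the mean of the 24 h shams. It is scaled so that shams of 24 h average 1 and shams of the later times 0. These shams also differ in labelled batch, and the 24 h shams are scored on an axis that they define. At 24 h the score ran from 0.943 to 1.03 in sham and from 0.766 to 0.937 in UNx, without overlap. The share of values above 0 that are not whole numbers, which shows how often reads were split between similar transcripts, was 18.2% to 28.1% in sham and 30.6% to 40.1% in UNx, again without overlap. Among genes named below, counts were whole in 1 of the 12 libraries for Gabarapl1 and in 0 for Tubb2a, Eno1, Ldhb and Idi1. What part split reads have in the differences of such genes was not tested. Mitochondrially encoded genes took 23.5% to 26.7% of the counts in sham and 21.5% to 24.9% in UNx. With the score as a covariate in the 12 libraries, 42 genes (0.298%) were called in edgeR, and with the score in a fit of all 36 bulk libraries 2859 (18.9%) were. Of the 3852 genes, 37 were called in the same direction in the first fit and 2459 in the second. The median standard error of the log2 fold change was 0.0896 without the score, 0.19 in the first fit and 0.107 in the second. A call lost in the first fit therefore need not mean a smaller effect. The score differed between the groups, so what it carries and the effect of surgery cannot be told apart within the 12 libraries. The fit of 36 libraries is named below as the joint covariate fit. Its slope on the score comes from differences between libraries of the same surgery and time. The widest of these ranges was UNx at 48 h, from 0.00874 to 0.803. How far the calls of this fit rest on that group was not tested.

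**Figure D1:**
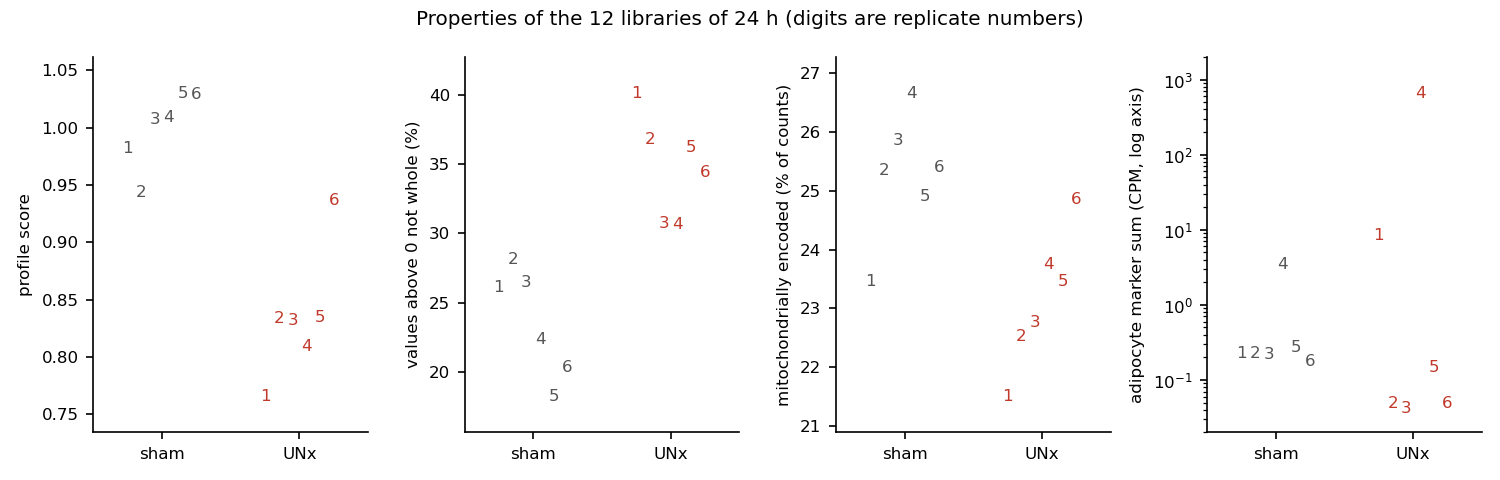
Properties of the 12 libraries of 24 h, with sham and UNx on the x axes and each digit standing for the replicate number of 1 library. The profile score and the share of values that are not whole (percent) separate the groups, the mitochondrial share (percent of counts) overlaps, while UNx replicate 4 stands alone at 650.0 CPM in the summed adipocyte markers (log axis).

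UNx replicate 4 held RNA of fat. Its 7 adipocyte markers summed to 650.0 CPM, against 8.37 CPM in UNx replicate 1 and at most 3.49 CPM in the other 10 libraries. Adipoq, the adipose hormone, stood at 68.4 CPM there and at most 1.34 CPM elsewhere, and Ucp1, the uncoupling protein of brown fat, at 70.8 CPM against at most 0.165, both picked out after their values were seen. Its summed fibroblast markers were 200.5 CPM, against 72.4 to 97.5 CPM in the other UNx libraries and 48.2 to 92.7 CPM in sham. The lists of lipid and matrix genes, and some of their members, are therefore given with and without it. The sums of all 17 marker lists overlapped between the groups, and the 8 proximal tubule markers summed to 9658 to 11566 CPM in sham and 10003 to 11123 CPM in UNx. Markers of connecting tubule and principal cells had 3 of 8 members called higher (Calb1, Avpr2 and S100g) and a median log2 fold change of 0.36, and summed to 543.5 to 753 CPM in sham and 683 to 914 CPM in UNx. Mural cells had 2 of 6 called higher (median 0.38), red blood cells 2 of 6 (0.31), fibroblasts 1 of 4 (0.54) and the proximal tubule 1 of 8 (−0.02). Intercalated cells had 2 of 6 called lower (0.005) and podocytes 1 of 6 (−0.19). The thick ascending limb had 1 of 6 called higher and 1 lower (−0.08). UNx replicate 4 held the highest mural sum, 242.5 CPM, against 125 to 184 CPM in the other UNx libraries. What part these shifts have in the results was not tested. In bulk tissue fewer cells of a type and less RNA per cell cannot be told apart.

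**Figure D2:**
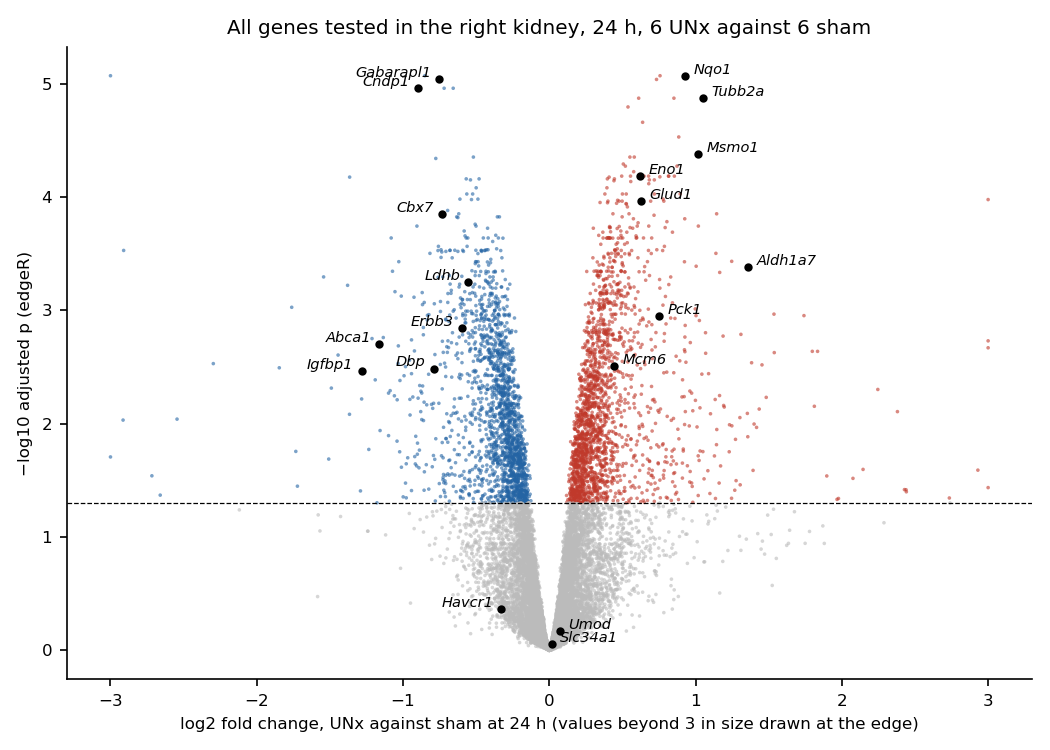
All 14104 genes tested, with the log2 fold change of UNx over sham on the x axis and −log10 of the adjusted p from edgeR on the y axis. Red points are called higher, blue points lower and grey points not called, the dashed line is the threshold of 0.05, and named genes are drawn in black; values beyond 3 in size are drawn at the edge, and most called genes lie within 1 of 0.

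Nqo1 and Tubb2a were among the genes with the lowest adjusted p. Nqo1 (ENSMUSG00000003849), a quinone reductase and a standard target of the oxidant sensor NRF2, lay between 23.5 and 29.5 CPM in sham (median 27.1) and between 45.2 and 56.0 CPM in UNx (median 50.3). Every UNx library was above every sham, and the log2 difference was 0.93 (SE 0.071, edgeR adjusted p 8.48e-06). Tubb2a, a beta tubulin, went from 23.4 to 30.3 CPM in sham to 48.0 to 73.2 CPM in UNx, a log2 fold change of 1.05. Nqo1 and Tubb2a were both among the 37 genes called with and without the covariate. Smaller rises without overlap were seen in Kpna1, an importin that carries proteins into the nucleus, at 0.38 and in Spc25, a kinetochore subunit, at 0.89.

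Genes of autophagy, dipeptide breakdown and chromatin were among those that fell. Gabarapl1 (ENSMUSG00000030161), which lines the growing autophagosome, ran from 659 to 767 CPM in sham and from 383 to 491 CPM in UNx, and the groups did not overlap. Its log2 fold change was −0.75 (SE 0.064, adjusted p 9.15e-06). Cndp1, an enzyme that splits carnosine, lay at 70.0 to 102 CPM in sham and 43.6 to 51.2 CPM in UNx, and it too was called with and without the covariate. Cbx7, a Polycomb protein of gene silencing, fell by 0.73 on the log2 scale. Its median was 26.9 CPM in sham and 15.8 CPM in UNx. Dhrs3, which turns retinal back into retinol, fell by 0.62 on the log2 scale. Cnksr3, a scaffold linked to sodium channel control, fell by 0.46, and Dusp1, a phosphatase that ends MAP kinase signals, fell by 0.41, each without overlap, and Dusp1 was not called in the joint covariate fit.

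**Figure D3:**
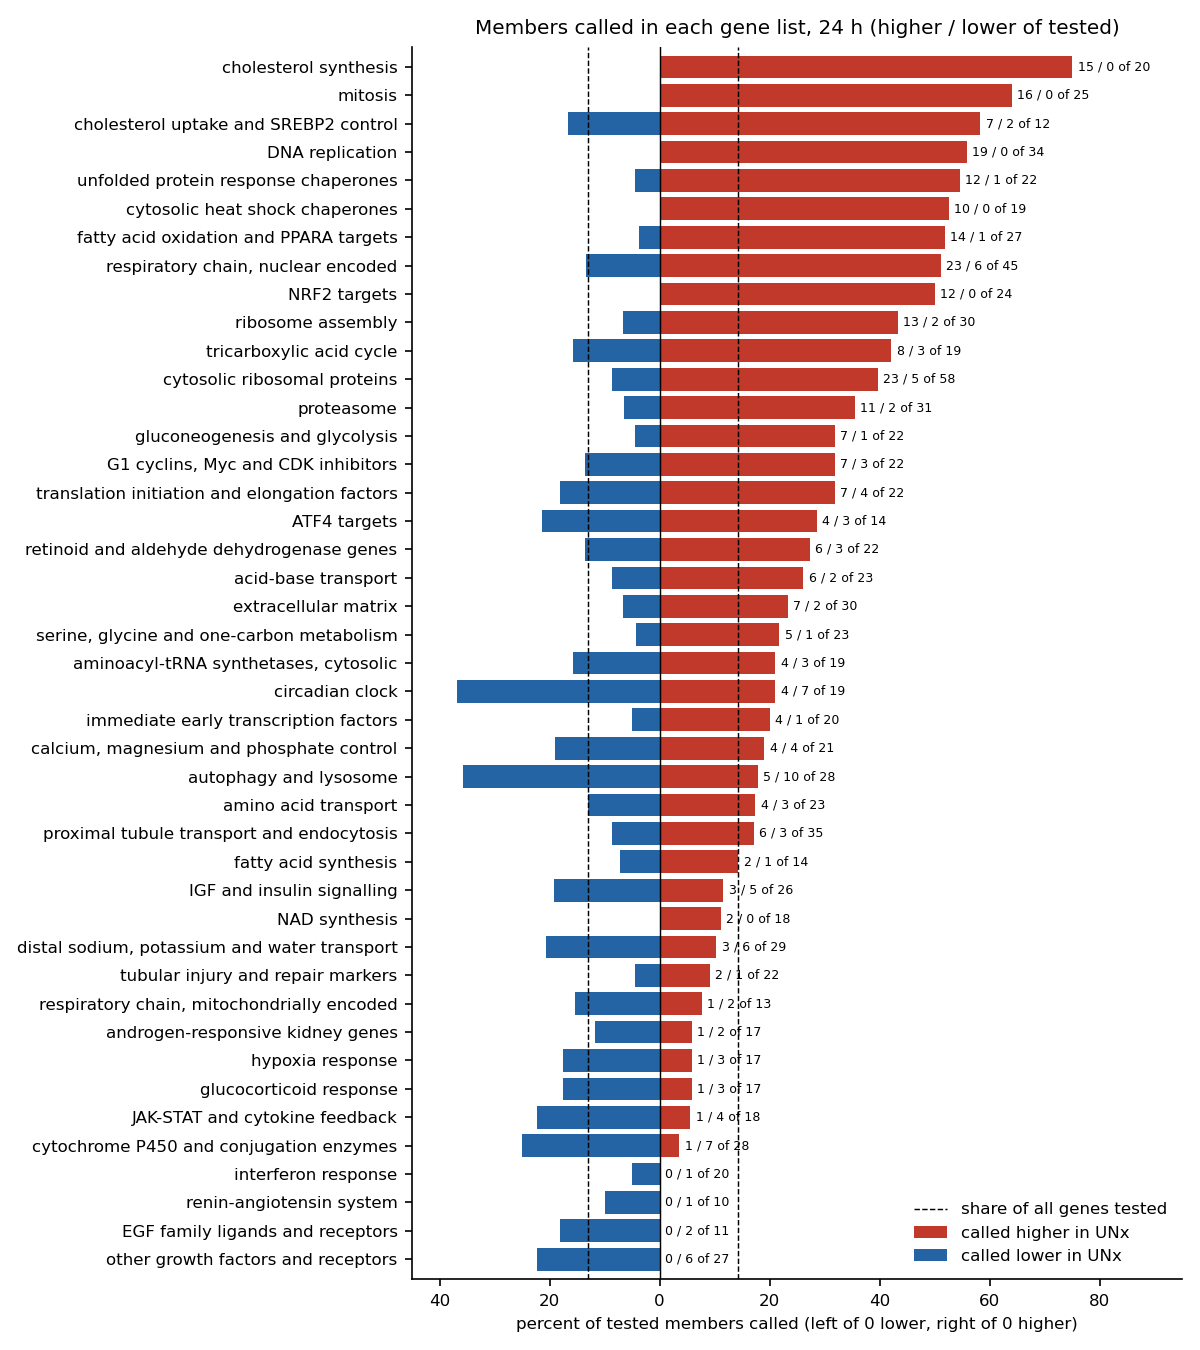
Members of each gene list with at least 10 genes tested that were called higher (red, right) or lower (blue, left) in UNx, as a percent of tested members on the x axis. Dashed lines mark the shares over all genes tested, 14.2% higher and 13.1% lower; cholesterol synthesis stands at the top with 15 of 20 members higher.

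Cholesterol synthesis rose as a group. Of 20 enzymes tested, 15 were called higher and none lower, with a median log2 fold change of 0.49 beside 0.005 for all genes tested, and 12 of the 20 did not overlap. In the joint covariate fit 13 were called higher. Without UNx replicate 4, 15 were called higher and 0 lower, with a median of 0.49. Msmo1, a sterol demethylase, lay between 23.2 and 39.5 CPM in sham (median 32.2) and between 57.6 and 74.1 CPM in UNx (median 67.9). No UNx library fell within the sham range, and the log2 fold change was 1.02 (SE 0.104, adjusted p 4.17e-05). Hsd17b7, a later enzyme of the same branch, moved from a sham median of 18.8 to a UNx median of 35.4 CPM. Hmgcs1, which makes the HMG-CoA that the pathway starts from, was far more abundant, at 528 to 614 CPM in sham and 719 to 856 CPM in UNx. Sqle, the squalene oxidase, rose by 0.58 and the cyclase Lss by 0.64, while Nsdhl rose by 0.58 and was also called with the covariate in the 12 libraries. Fdps at 0.92 and Idi1 at 0.84, 2 enzymes that build isoprenoid units, were picked out after their values were seen.

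Genes that sense and carry sterol rose with the enzymes, and the sterol exporter Abca1 fell. Of 12 genes of cholesterol uptake and SREBP2 control, 7 were called higher and 2 lower, the same numbers as without UNx replicate 4. Insig1 (ENSMUSG00000045294), which holds SREBP2 back when sterol is plentiful and is itself its target, ran from 41.0 to 54.4 CPM in sham and from 78.3 to 114 CPM in UNx, with no overlap, and its log2 fold change was 0.82 (SE 0.0901, adjusted p 6.53e-05). The sterol carrier Stard4 rose by 0.40. Abca1, the cholesterol exporter, went from 22.5 to 41.6 CPM in sham to 9.41 to 27.6 CPM in UNx, where UNx replicate 4 held the highest value and the other 5 lay below every sham. Its log2 fold change was −1.16 (SE 0.227, adjusted p 0.00198). Mylip, a ubiquitin ligase that limits sterol uptake, fell by 0.74 on the log2 scale without overlap, and was chosen for the text after its values were seen. In the joint covariate fit 13 of the 15 synthesis genes were called again in the same direction, as were 6 of the 7 higher and both lower genes of uptake and control. Without UNx replicate 4 Insig1 was at 0.73 and Abca1 at −1.47, each still called (adjusted p 2.67e-05 for both).

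In the RefSeq promoter windows, 250 bases before to 50 after the start, the strict sterol motif was rare. It was present in Hmgcs1 alone among 15 cholesterol synthesis genes with a window, 6.67%, beside 1.45% of 10706 tested genes with one. None of 8 uptake and control genes held it. A match describes letters only, and no match says only that these letters are not in this window.

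Genes of fatty acid oxidation were more often called higher than lower, and those of fatty acid synthesis went both ways. Of 27 genes of fatty acid oxidation and PPARA targets, 14 were called higher and 1 lower, with a median of 0.27, against 6 and 1 in the joint covariate fit. Without UNx replicate 4 it was 10 higher and 1 lower, with a median of 0.20. Slc25a20, which carries acylcarnitine into mitochondria, lay at 30.8 to 36.0 CPM in sham and 47.9 to 59.6 CPM in UNx, a log2 fold change of 0.64 without overlap. Cpt2, the inner carnitine transferase, rose by 0.57 and Hadh, an oxidation enzyme, by 0.37. Without replicate 4 Slc25a20 was at 0.60, Cpt2 at 0.54 and Hadh at 0.35, each still called. Plin2, which coats lipid droplets, went from a sham median of 46.0 to a UNx median of 62.0 CPM, a log2 fold change of 0.47, and 0.43 without replicate 4. The entry enzyme Cpt1a was the member called lower, from 422 to 497 CPM in sham to 378 to 437 CPM in UNx, with overlap and a log2 fold change of −0.19 (adjusted p 0.0198). It lost the call without sham replicate 6 (−0.17, adjusted p 0.0501).

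**Figure D4:**
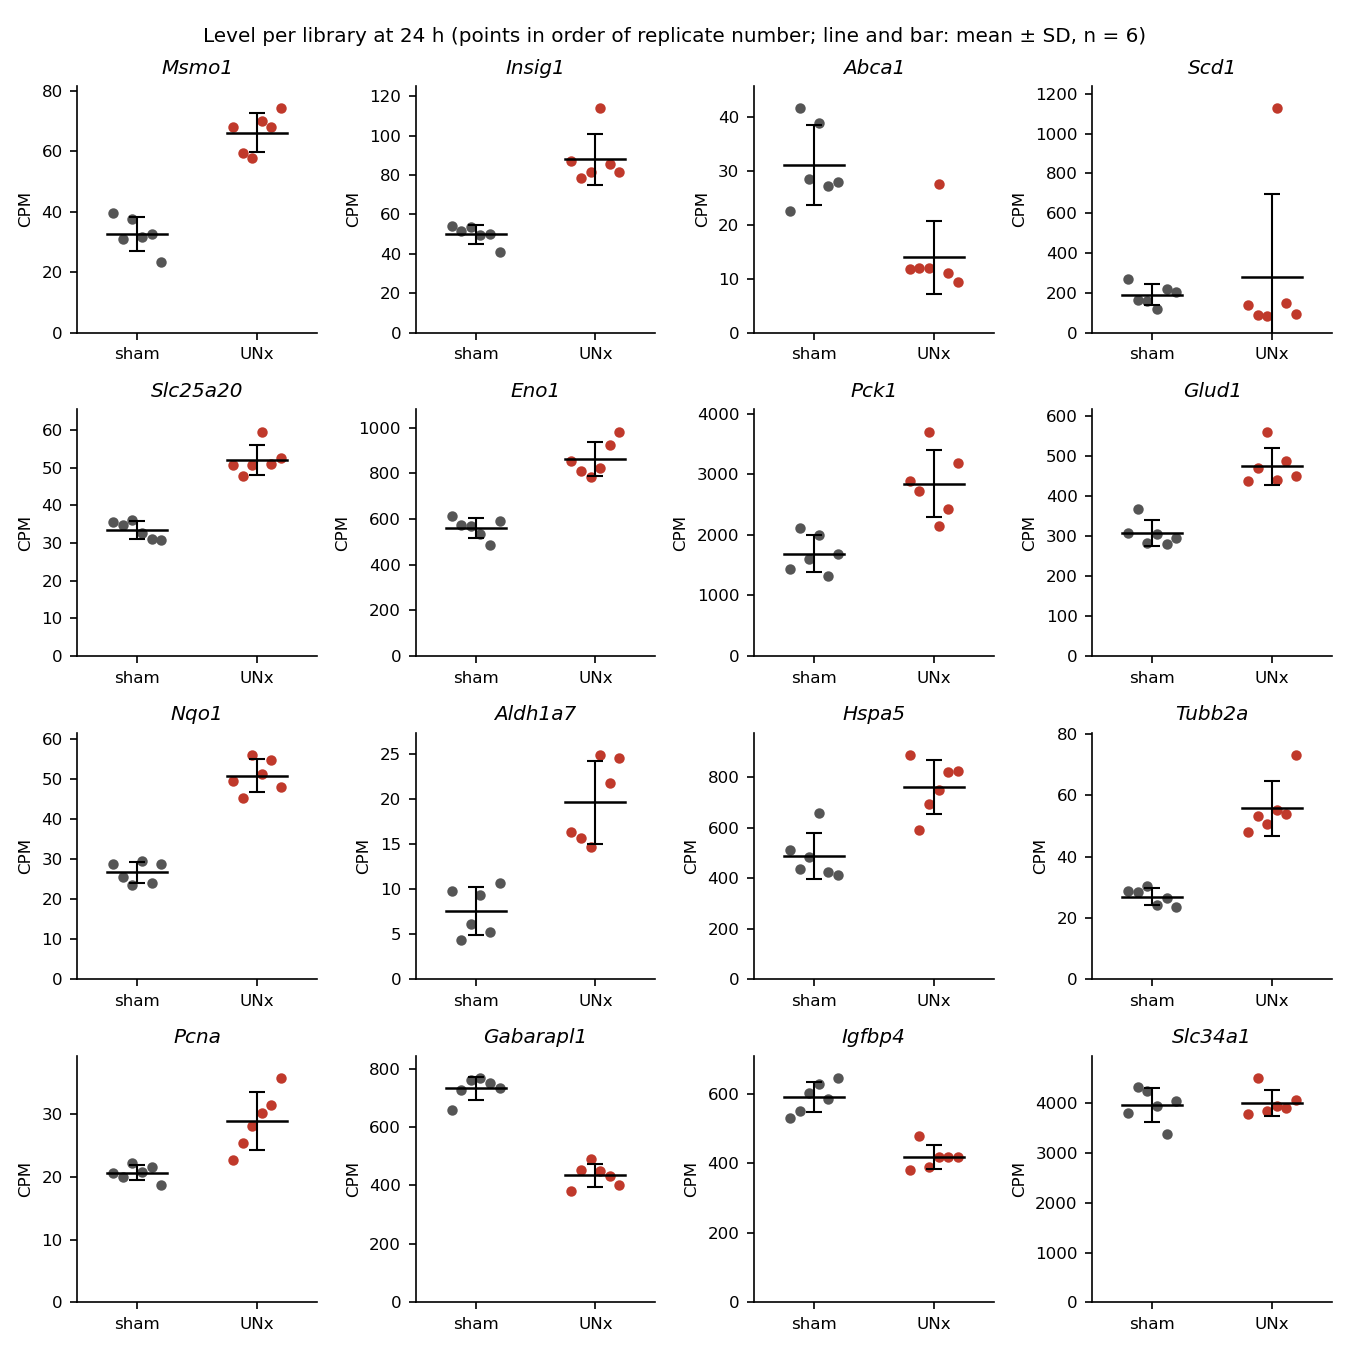
Level in CPM (y axes, each from 0) of 16 genes in each library of 24 h, grey for sham and red for UNx, in order of replicate number, with the mean and SD of 6 libraries in black (the SD bar of Scd1 in UNx is cut at 0). Msmo1, Nqo1, Eno1 and Gabarapl1 separate the groups completely, Slc34a1 does not, and the single high Scd1 value of 1126 CPM is UNx replicate 4.

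Fatty acid synthesis did not move as a group: 2 of 14 members were called higher and 1 lower. The calls of Scd1 and Fasn depended on UNx replicate 4. Scd1, the desaturase that makes oleate, was at 1126 CPM in that library and at 86.1 to 151 CPM in the other 5 UNx libraries, against 121 to 270 CPM in sham. With all libraries its log2 fold change was 0.57 (adjusted p 0.487), and without replicate 4 it was −0.76 (SE 0.191, adjusted p 0.0108), so that it was then called lower. Fasn, the fatty acid synthase, was at 873 CPM in replicate 4 and 128 to 138 CPM in the other UNx libraries, against 95.6 to 124 CPM in sham. It was not called with all libraries (1.21, adjusted p 0.0544) and was called higher without replicate 4, at 0.26 (adjusted p 0.0161). Scd1 and Fasn were chosen after their values were seen. Without replicate 4 the list had 2 members higher and 2 lower. Fads2, another desaturase, fell by 0.26 on the log2 scale and Scd2 rose by 0.36, each called with replicate 4 left out as well.

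Subunits of the respiratory chain were called more often than the background in both directions together, mostly higher. Of 45 nuclear-encoded subunits of the respiratory chain, 23 were called higher and 6 lower. Cox5a of complex IV lay at 63.4 to 82.6 CPM in sham and 100.5 to 130.1 CPM in UNx, a log2 difference of 0.68 (SE 0.076, adjusted p 6.53e-05). Sdhd of complex II rose by 0.50, and Ndufv2 and Ndufs7 of complex I by 0.50 and 0.52. Against these, Ndufs5 and Ndufs6, also of complex I, fell by 0.76 and 0.68 on the log2 scale, and were picked out after their values were seen. With the covariate in the 12 libraries Ndufs5 shrank to −0.11 and Ndufs6 to −0.13, while Cox5a was at 0.35, and none of the 3 was called there. The joint covariate fit called 14 subunits higher and 4 lower.

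Genes of the citric acid cycle and of glucose and lactate handling were more often called higher than lower, though most were not called higher. Of 19 cycle genes 8 were called higher and 3 lower, and 5 and 3 in the joint covariate fit, among them citrate synthase (Cs), from a sham median of 229.5 to a UNx median of 299 CPM, and Dlat, a subunit of pyruvate dehydrogenase, at 0.46. Of 22 genes of gluconeogenesis and glycolysis 7 were called higher and 1 lower, and 5 and 2 in the joint covariate fit. Eno1, the glycolytic enolase, ran from 488 to 613 CPM in sham and 786 to 983 CPM in UNx, with a log2 fold change of 0.62 that was called in every fit with the score. Ldha, the muscle-type lactate dehydrogenase, rose by 0.42 and Pgam1, another glycolytic enzyme, by 0.41, while the heart-type Ldhb went from 1271 to 1861 CPM in sham to 964 to 1196 CPM in UNx. Pck1, the enzyme that commits the proximal tubule to making glucose, lay at 1317 to 2111 CPM in sham and at 2138 to 3701 CPM in UNx, a log2 fold change of 0.75. Slc16a1, a lactate and pyruvate carrier, rose from a sham median of 22.8 to a UNx median of 42.4 CPM. Pck1 and Slc16a1 were chosen after their values were seen. Among 13 mitochondrially encoded genes 1 was called higher and 2 lower, with mt-Atp8 at 0.52 and mt-Cytb at −0.44, and nuclear copies of mitochondrial DNA can share their reads.

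Several genes of ammonia handling and acid excretion rose. In the acid-base list 6 of 23 members were called higher and 2 lower, and the joint covariate fit gave the same numbers. Glud1, which splits ammonia from glutamate, lay at 280 to 368 CPM in sham and 438 to 561 CPM in UNx, and the groups did not overlap (log2 fold change 0.63, SE 0.077, adjusted p 0.000108). Rhbg, an ammonia channel of the collecting duct, ran from 9.39 to 16.1 CPM in sham and 17.7 to 22.1 CPM in UNx. Car2, the cytosolic carbonic anhydrase, rose by 0.45, with 247 to 323 CPM in sham and 366 to 420 CPM in UNx. Lower were Atp6v0d2, a proton pump subunit, and Slc26a4, a chloride and bicarbonate exchanger of intercalated cells.

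Of 24 NRF2 targets 12 were called higher and none lower. The other 12 were not called, and 5 of the 24 had a value below 0, down to −0.24. The joint covariate fit called 12 higher, 10 of them the same genes. Hmox1, the heme oxygenase, lay between 15.8 and 22.4 CPM in sham and between 30.3 and 38.5 CPM in UNx. The groups were apart, with a log2 difference of 0.81 (SE 0.091, adjusted p 6.53e-05). Txn1, thioredoxin, rose by 0.56 and Srxn1, which repairs oxidised peroxiredoxins, by 0.49. The retinoid and aldehyde dehydrogenase list had 6 of 22 members higher and 3 lower, and 3 and 2 in the joint covariate fit. Aldh1a7 went from 4.38 to 10.7 CPM in sham to 14.7 to 25.0 CPM in UNx. Its close paralog Aldh1a1, picked out after its values were seen, went from a sham median of 3.81 to a UNx median of 8.14 CPM. Close paralogs can share reads, though counts were whole in 12 libraries for Aldh1a1 and in 9 for Aldh1a7. Rdh10, which makes retinal from retinol, rose by 0.49, against the fall of Dhrs3.

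Protein folding genes were more often called higher than lower in 2 compartments. Of 22 chaperones of the unfolded protein response in the endoplasmic reticulum, 12 were called higher and 1 lower, and 8 and 1 in the joint covariate fit. Hspa5, its main chaperone, ran from 413 to 656 CPM in sham and from 589 to 887 CPM in UNx, with overlap from sham replicate 4 alone. Its log2 fold change was 0.64 (SE 0.116, adjusted p 0.0012). Manf, a secreted stress protein, rose by 0.79 and Dnajb9, a co-chaperone, by 0.50, while Sel1l, a part of the degradation complex, rose by 0.39. Creld2 and Syvn1, the membrane ligase of that complex, were called at 0.72 and 0.39 and were chosen after their values were seen. Of 19 cytosolic heat shock chaperones 10 were called higher and none lower, but 2 higher and 1 lower in the joint covariate fit, and UNx libraries spread widely: Hspa1b lay at 15.7 to 35.8 CPM in sham and 20.2 to 148 CPM in UNx. Dnajb1, a partner of these chaperones, rose by 0.87 from a sham median of 19.7 CPM.

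The stress element stood in 9 of 20 chaperone genes with a window, 45.0%, beside 0.177% of tested genes. Matches were in Hspa5, Creld2, Syvn1, Pdia6 and Canx, each called higher, and in Calr, Derl3, Hsp90b1 and Dnajc3, which were not called. ATF4 targets, another arm of the stress response, were mixed, with 4 of 14 called higher and 3 lower. Ddit3, a stress transcription factor, rose by 0.59, though not in the joint covariate fit, and Sesn2, which restrains mTORC1, fell by 0.41 on the log2 scale. Atf4 itself lay at 49.0 to 74.8 CPM in sham and 49.6 to 96.5 CPM in UNx, a difference of 0.17 with a 95% interval of −0.17 to 0.51.

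Genes of protein synthesis and breakdown were called higher in part, and by small amounts. Ribosome assembly had 13 of 30 members higher and 2 lower, and 10 and 2 in the joint covariate fit, with the assembly factors Wdr12 at 0.46 and Gnl3 at 0.40, each without overlap. Of 58 ribosomal protein genes 23 were called higher and 5 lower, and 15 and 8 in the joint covariate fit. Rpl39 rose by 0.76 from 14.6 to 21.9 CPM in sham to 22.3 to 35.9 CPM in UNx, and Rpl5 went from 36.4 to 43.0 CPM in sham to 25.5 to 28.1 CPM in UNx. Many ribosomal genes have pseudogene copies that can take their reads, so these counts are uncertain. Translation factors went both ways, with 7 of 22 called higher and 4 lower, among them Eif4a1, the helicase that opens messages for the ribosome, at 0.44. Aminoacyl-tRNA synthetases also went both ways, with 4 of 19 higher and 3 lower. Of 31 proteasome genes 11 were called higher and 2 lower, and 7 and 4 in the joint covariate fit, with the core subunits Psmb5 at 0.53 and Psma3 at 0.52.

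Amino acid carriers did not move one way: 4 of 23 were called higher and 3 lower, 30.4% in all and near the background, and 1 and 2 in the joint covariate fit. Slc38a3, a glutamine carrier of the basal membrane, lay at 52.6 to 63.5 CPM in sham and 83.0 to 128 CPM in UNx. It did not overlap and was called with and without the covariate (log2 fold change 0.87, SE 0.093, adjusted p 5.33e-05). Slc6a6, the taurine carrier, fell by 0.52 on the log2 scale, from 350 to 414 CPM in sham to 241 to 292 CPM in UNx. Slc6a19, which takes up neutral amino acids from the filtrate, fell by 0.48 on the log2 scale with overlap.

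Cell cycle genes rose from low levels. In the DNA replication list 19 of 34 members were called higher and none lower, with a median log2 fold change of 0.46, and 18 were called in the joint covariate fit. Pcna, the sliding clamp of DNA polymerase, ran from 18.8 to 22.3 CPM in sham and from 22.6 to 35.7 CPM in UNx, which left the groups just apart. Mcm6, a subunit of the replication helicase, lay at 20.7 to 25.1 CPM in sham and 26.3 to 40.2 CPM in UNx, also apart. Both were called with the covariate in the 12 libraries, at 0.91 for Pcna and 0.97 for Mcm6, against 0.48 and 0.44 without it. UNx replicate 6 held the highest value of each gene. It also had the highest score of the UNx libraries, 0.937 beside 0.766 to 0.835 in the others. How far the covariate values rest on that library was not tested. Rrm2, which supplies deoxynucleotides, rose from a sham median of 4.56 to a UNx median of 8.84 CPM, and Mcm3, another helicase subunit, rose by 0.83. Cdc6, which loads the helicase, lay at 0.257 to 0.882 CPM in sham and 0.694 to 3.70 CPM in UNx and was chosen after its values were seen. It lost the call without sham replicate 4, 5 or 6 or UNx replicate 5 or 6, with values of 0.80 to 1.31 (adjusted p 0.0591 to 0.0755).

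Mitosis genes rose in 16 of 25 members, none lower, with a median of 0.81, and 13 were called higher in the joint covariate fit. Mki67, a marker of dividing cells, was at 3.84 to 9.26 CPM in sham and 7.59 to 21.4 CPM in UNx, so that the groups overlapped (log2 fold change 0.84, SE 0.240, adjusted p 0.0174). Ect2, needed for the final split of the cell, rose by 0.44 and lost the call without UNx replicate 3 (0.36, adjusted p 0.0508). Of 11 alpha and beta tubulin genes tested, a family taken up after its values were seen, 6 were called higher and none lower. Tubb4b, one of them, lay at 132 to 181 CPM in sham and 221 to 268 CPM in UNx. Tuba4a at 0.46, Tubb5 at 0.62, Tubb2b at 0.80 and Tuba1c at 0.38 were called as well, each also with the covariate in the 12 libraries. UNx replicate 6, the UNx library with the highest score, was highest in these and in Tubb2a and Tubb4b. Tubulin genes are similar enough for reads to be shared between them.

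Genes that set the start of the cycle went both ways, with 7 of 22 called higher and 3 lower. E2f3, a factor that drives replication genes, rose by 0.58 and Cdkn1a, the inhibitor p21, by 0.70, from a sham median of 3.35 to a UNx median of 5.35 CPM. Cdkn1b, the inhibitor p27, fell by 0.43 on the log2 scale, with 32.5 to 40.5 CPM in sham and 24.3 to 31.7 CPM in UNx. Ccnd1, cyclin D1, was called lower at −0.44 (adjusted p 0.0418), but lost the call without sham replicate 1, 2, 3 or 5 or UNx replicate 1, 2, 3 or 4 (−0.44 to −0.36, adjusted p 0.0621 to 0.0892) and was at 0.005 with the covariate in the 12 libraries. Myc was not called, at 0.53 with a 95% interval of 0.01 to 1.05. E2F motifs stood in 10 of 29 replication genes with a window, 34.5%, beside 3.23% of tested genes, and in 1 of 20 mitosis genes, 5.0%. Among the replication genes, matches were in Mcm3, Mcm6 and Cdc6, each called higher. The others with a match, Mcm7, Rfc3, Pold1, Mcm5, Gins3, Cdt1 and Pola1, were not called.

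The autophagy list held the largest number of genes called lower, though the clock list, with 7 of 19, had a larger share. The background was 13.1% called lower. Of 28 genes of autophagy and the lysosome 10 were called lower and 5 higher. Beside Gabarapl1, the kinase Ulk1 that starts autophagy went from 67.8 to 79.0 CPM in sham to 48.0 to 62.0 CPM in UNx, without overlap. Map1lc3b, another autophagosome protein, fell by 0.28, and the lysosomal protease Ctsl by 0.44 on the log2 scale. In the joint covariate fit 9 members were called lower and 4 higher.

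Among growth factor genes, a binding protein of IGF and receptors of the EGF family fell. The growth factor and JAK-STAT lists were called at shares near or below the background of 27.3%. In the IGF and insulin list 5 of 26 members were called lower and 3 higher, 30.8% in all. Igfbp4, a binding protein that keeps IGF from its receptor, lay at 530 to 644 CPM in sham and 381 to 478 CPM in UNx, with no overlap and a log2 difference of −0.50 (SE 0.066, adjusted p 0.00018). Igfbp1 fell by 1.28 on the log2 scale from a sham median of 5.71 CPM. Foxo1, the factor that growth signals hold outside the nucleus, fell by 0.35 on the log2 scale and Igf1r, the receptor, by 0.30, while the kinase Akt1 rose by 0.27. Igf1r lost the call without sham replicate 1 or 4 or UNx replicate 2, 3 or 4 (−0.29 to −0.24, adjusted p 0.0563 to 0.0659). Igf1 was not called (0.28, 95% interval −0.18 to 0.73), and was at 0.08 without UNx replicate 4.

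Of 11 EGF family genes 2 were called lower and none higher, 18.2% in all. Erbb3, a receptor of the family, ran from 89.3 to 149 CPM in sham and 61.8 to 82.3 CPM in UNx, and Erbb2 from 43.6 to 52.0 CPM in sham and 31.1 to 40.9 CPM in UNx. Neither receptor overlapped between the groups. Egf, made by the thick ascending limb, and Egfr were not called, at −0.19 and −0.20. Among 27 other growth factors and receptors 6 were called lower and none higher, 22.2% in all. One was Bmp6, a ligand known for its control of the iron hormone hepcidin, at −0.43. Another was Kl, the co-receptor for the phosphate hormone FGF23, at −0.24. In the joint covariate fit 2 were lower and 1 higher, and Kl was not called. In the JAK-STAT list 1 of 18 was called higher and 4 lower, 27.8% in all. Jak2 fell by 0.32 on the log2 scale without overlap. Cish, a feedback inhibitor of cytokine receptors, was the gene called higher, at 6.98 to 35.3 CPM in sham and 28.1 to 44.5 CPM in UNx, with overlap. It lost the call in the joint covariate fit and without sham replicate 5 or 6 or UNx replicate 2, 3 or 6 (0.75 to 0.81, adjusted p 0.058 to 0.0733).

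Clock genes went both ways, with 7 of 19 called lower and 4 higher. Dbp, an output of the clock, lay at 61.4 to 108 CPM in sham and 31.3 to 69.8 CPM in UNx, and the repressors Nr1d1 and Nr1d2 fell by 0.60 and 0.49 on the log2 scale, the first of them not called in the joint covariate fit. Clock, an activator, rose by 0.28. Cry1 rose by 0.91 from a sham median of 1.89 CPM and Bhlhe41 fell by 0.95 on the log2 scale, both chosen after their values were seen. The labels give no hour of sampling, and a difference in the hour between the groups was not tested.

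Transport genes were called in both directions, at shares near or above the background of 27.3%. Of 35 genes of proximal tubule transport and endocytosis 6 were called higher and 3 lower, 25.7% in all, and 2 and 3 in the joint covariate fit. Slc34a1, the main phosphate carrier, lay at 3377 to 4331 CPM in sham and 3779 to 4499 CPM in UNx, a difference of 0.02 with a 95% interval of −0.14 to 0.17. Slc22a5, the carnitine carrier, went from 95.8 to 110 CPM in sham to 134 to 156 CPM in UNx, and Slc5a10, a sugar carrier, rose by 0.68. Dab2, which helps the endocytosis receptors, fell by 0.39 on the log2 scale. Of 29 distal transport genes 3 were called higher and 6 lower, 31.0% in all, and 2 and 1 in the joint covariate fit. Umod, made in the thick ascending limb, did not differ detectably (0.07, 95% interval −0.18 to 0.33). In the calcium, magnesium and phosphate list 4 of 21 were called higher and 4 lower, 38.1% in all, and 3 and 2 in the joint covariate fit, with Calb1, a calcium carrier protein of the distal tubule, at 0.67 and Cldn16, a magnesium pore of the thick ascending limb, at 0.62.

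Few injury and interferon genes were called. Of 22 injury and repair markers 2 were called higher and 1 lower. Havcr1, which codes for KIM-1, lay at 2.15 to 5.18 CPM in sham and 1.02 to 4.63 CPM in UNx, and Lcn2, which codes for NGAL, at 1.54 to 4.74 CPM in sham and 1.47 to 4.59 CPM in UNx. Their 95% intervals were −0.97 to 0.32 and −0.40 to 0.92, so that a doubling lay outside both. Plau, the urokinase, fell by 0.48 on the log2 scale, while Krt8, a keratin, rose by 0.22 and Anxa3, a membrane-binding protein, by 0.63. Of 20 interferon response genes B2m alone was called, at −0.48, and it was not called in the joint covariate fit. In the hypoxia list 1 of 17 was called higher and 3 lower, 23.5% in all and near the background, with Egln1, an oxygen sensor, at −0.33 and Epas1, a hypoxia-inducible factor, at −0.19, the last not called in the joint covariate fit. Ren1 lay at 29.8 to 40.9 CPM in sham and 25.8 to 63.6 CPM in UNx.

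Matrix genes rose in 7 of 30 members, with 2 lower, but 0 were higher and 1 lower in the joint covariate fit. Col1a2, a chain of type I collagen, was at 14.5 to 31.0 CPM in sham and 27.6 to 40.5 CPM in 5 UNx libraries, and at 55.6 CPM in UNx replicate 4. Its log2 fold change was 0.70 with all libraries and 0.55 (adjusted p 0.0218) without replicate 4, and it was at −0.07 with the covariate in the 12 libraries. Sparc, a matrix protein that binds collagen, rose by 0.39, and by 0.33 without replicate 4. Without that library 5 members were called higher and 2 lower.

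The 24 h effect was set against the effect in other mice 72 h after surgery, with shams of its own. The 2 effects differed for 626 of 15093 genes, 4.15%, of which 213 were more positive at 24 h. The count fell to 376 without sham replicate 6 of 24 h and to 405 without sham replicate 4, and was 890 without sham replicate 1. With the profile score as a covariate it was 137. Nqo1 was at 0.93 at 24 h and 0.16 at 72 h (adjusted p of the difference 0.00294). Ctsl, Cndp1 and Ldhb had likewise lost most of their fall, with 0.05, −0.20 and 0.04 at 72 h. Slc22a5 and Rhbg were at 0.51 and 0.54 at 24 h and at −0.35 and −0.29 at 72 h, and the 72 h values were not called (adjusted p 0.097 and 0.232). Lims1, an adaptor at cell-matrix contacts, and Trappc3, a vesicle tethering subunit, went from 0.42 and 0.35 to −0.01 and 0.01, and Psmg1, which helps to assemble the proteasome, and the methyltransferase Setd6 from −0.32 and −0.34 to 0.12 and 0.14. Pck1 (0.94 at 72 h), Slc38a3 (0.70) and Rrm2 (1.06) had no called difference between the times, which does not show that they were equal. The times also differ in labelled batch, which the shams of each time share.

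**Figure D5:**
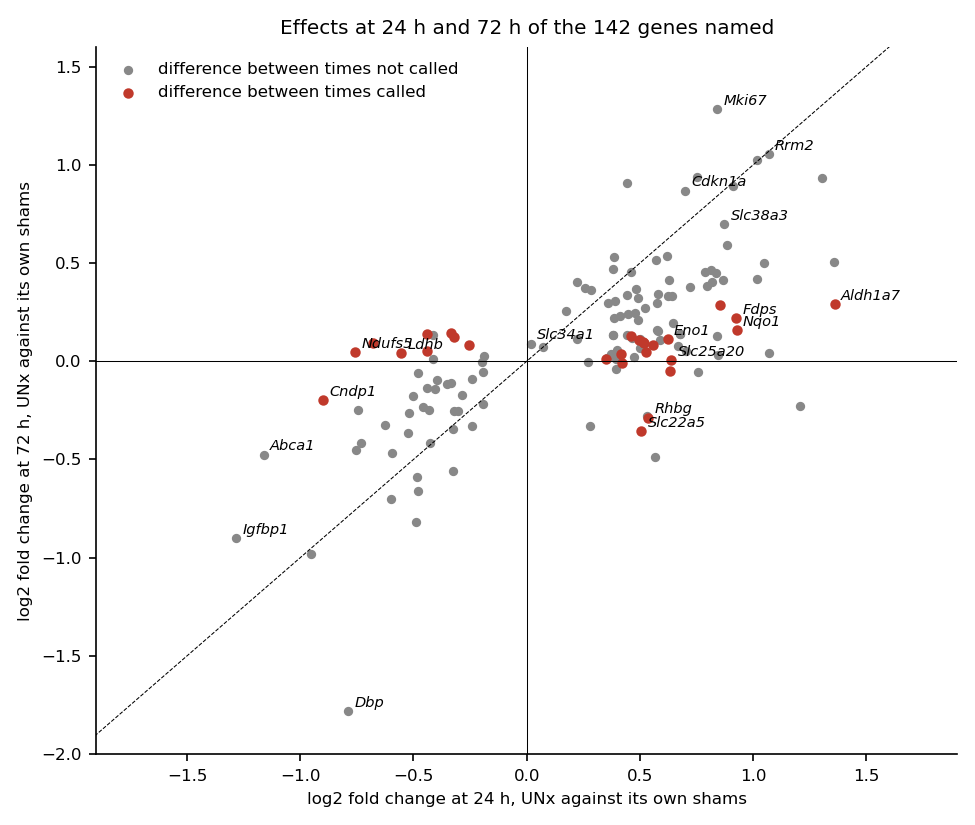
Log2 fold change of UNx over sham at 24 h (x axis) and at 72 h (y axis) of the 142 genes named, each time against its own 6 shams, with the line of equal effect dashed. Red points are the 27 genes whose effect differed between the times in edgeR; Nqo1, Cndp1 and Ldhb lie at 0.16, −0.20 and 0.04 at 72 h.

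At 48 h, UNx replicates 1 to 5 stood apart from replicate 6 in the profile score, at 0.689 to 0.803 against 0.00874. The effects of 24 h and 48 h differed for 5587 of 15093 genes, 37.0%, and for 14 with the score as a covariate. Because of this split no single gene is compared between these times.

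The 2 sham and 2 UNx kidneys read as nuclei gave 5342, 2641, 5151 and 3366 nuclei. No doublet caller was run, and whether doublets were removed before deposit is not given in the sources used here. Summed over all nuclei, 0 of 19975 genes (0.0%) passed the threshold of edgeR, while 360 had a p under 0.05 before adjustment. With the replicate number as a block, which is also the labelled batch of the nuclei, 207 (1.04%) were called. Of 3717 genes called in bulk and tested in nuclei 57.9% had the same sign there, beside 52.7% of all 13492 genes tested in both, and of 684 called with a size above 0.5, 66.2%. The share of called genes was 49.5% without sham mouse 1 and 48.5% without UNx mouse 2, which is no longer above an even split. In cholesterol synthesis 17 of 20 genes and in replication 29 of 34 had the sign of the bulk, but in mitosis 5 of 24. Between 5 and 13 barcodes of each mouse were shared with another mouse.

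With the block, 55 genes were called both in bulk and in nuclei, 40 in the same direction and 15 in opposite directions. Aldh1a7 was at 1.23 and 4.71 CPM in sham nuclei and 3.40 and 12.7 CPM in UNx nuclei, higher within each batch as in bulk. Mylip went from 77.2 and 92.5 to 38.1 and 22.9 CPM, and Slc7a7, a basal carrier of cationic amino acids, from 383 and 362 to 130 and 112 CPM in nuclei, both lower as in bulk, where Slc7a7 was at −0.24 and was not called in the joint covariate fit (−0.25, adjusted p 0.166). Cish showed the opposite: it was at 46.9 and 49.2 CPM in sham nuclei and 9.87 and 9.01 CPM in UNx nuclei, and higher in bulk. Keg1, a glycine acyltransferase-like gene of the proximal tubule, stood at 3943 and 3231 CPM in sham nuclei and 548 and 744 CPM in UNx nuclei. In bulk it ran from 974 to 1319 CPM in sham to 1110 to 1772 CPM in UNx, a log2 fold change of 0.36 (adjusted p 0.0231), and it was not called in the joint covariate fit (0.27, adjusted p 0.226). Gldc, the glycine cleavage enzyme, also fell in nuclei (−1.73 with the block) and rose in bulk (0.38). Calb1 was called lower in nuclei, at −0.84, and higher in bulk. Keg1 was taken up after its values were seen. It lost the bulk call without sham replicate 4 or UNx replicate 3 or 4 (0.29 to 0.32, adjusted p 0.0503 to 0.0574), and Gldc without sham replicate 3 or 5 or UNx replicate 3 (0.34 in each, adjusted p 0.0524 to 0.0548). The nuclei came from other mice and were read at the 3′ end, and whether mice, assay or nuclear and cytoplasmic RNA account for these differences was not tested.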

How the data were processed

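Bulk right kidney RNA was read as a stranded mRNA library with 150 bp paired ends, per the labels' protocols. For these libraries Salmon 1.5.0, FastQC 0.11.8, R 4.10 and build GRCm39 are named, per the submitters' processing notes, which list alevin, Seurat and mm10 for nuclei, all without settings. The deposited bulk table holds estimated counts for 28467 genes, not normalized, of whose values 28.7% are not whole. The authors' deposited nucleus table holds estimated counts of UMIs. Estimated counts were rounded (nuclei: after summing per mouse); 127 genes had no symbol in GENCODE M21.

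The two-sided quasi-likelihood test of edgeR 4.0.16 (filterByExpr, TMM) was run in R 4.3.3, with limma 3.58.1 and DESeq2 1.42.0 as alternatives, and Benjamini-Hochberg adjustment over all genes tested. Intervals at 95% use 10 degrees of freedom. The fits were tested on simulated data. The 43 gene lists and 17 marker lists and the genes named were chosen with earlier results of these data known. The rule named the 10 largest changes per direction above a log2 CPM of 4 with no overlap and whole counts (within 0.01) in at least 10 libraries, the 3 lowest p per direction, up to 4 members per list above a log2 CPM of 2, 2 per direction for each time difference, 3 per direction called with and without the score, and a fixed set of growth and injury genes. It allowed 195 genes, of which 121 are named, and 21 others are named as chosen after their values were seen. The profile score uses 95 pseudogenes above a log2 CPM of 1. Promoters are RefSeq windows of GRCm38.p6, another build than that of the counts, so no gene coordinates of the files are given. Replicate pairs of bulk libraries differed by a chi-square of at least 6.55 per gene, so each counts as 1 sample. A few genes are not reported here.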

Additional observations from a re-analysis of the deposited data

Results flagged for a closer look

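Of 330 groups of 6 values checked, 29 had 1 value set apart from the other 5, and chance alone gives about 1 in 20. UNx replicate 4 held 8 of them. These were the marker sums of fat, at 650.0 CPM, and fibroblasts, at 200.5 CPM, Scd1 at 1126 CPM, Fasn at 873 CPM, Abca1 at 27.6 CPM, Insig1 at 114 CPM, Fads2 at 194 CPM and Igf1 at 18.1 CPM, each high. Sham replicate 4 was high in the chaperone genes Manf (56.0 CPM), Creld2 (30.1 CPM) and Sel1l (127 CPM), in Erbb3 (149 CPM) and in the fat marker sum (3.49 CPM), and low in Dnajb1 (15.1 CPM) and Igf1 (4.98 CPM). UNx replicate 1 was high in Syvn1 (80.2 CPM), Dnajb9 (74.1 CPM), Sel1l (160 CPM) and Ren1 (63.6 CPM). UNx replicate 6 was high in Tubb2a (73.2 CPM), Tubb5 (88.8 CPM), Cdc6 (3.70 CPM) and Ndufs6 (110 CPM) and low in Slc22a5 (134 CPM). UNx replicate 3 was low in Map1lc3b (91.2 CPM) and had the largest library, 24.1 M (of 1000000 counts). Single values also stood apart for Gabarapl1 in sham replicate 1 (659 CPM), Insig1 in sham replicate 6 (41.0 CPM) and Glud1 in sham replicate 2 (368 CPM).

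For 27 named genes the effect at 24 h differed from that at 72 h in edgeR, given as the 24 h minus the 72 h log2 fold change. Metabolic genes with a more positive effect at 24 h were Hsd17b7 (0.54), Fdps (0.69), Slc25a20 (0.61), Ndufv2 (0.37), Ndufs7 (0.40), Dlat (0.31), Eno1 (0.49) and Ldha (0.36). Those with a more negative effect were Fads2 (−0.36), Ldhb (−0.62), mt-Cytb (−0.60), Ndufs5 (−0.82) and Ndufs6 (−0.79). In the redox and aldehyde group the differences were 0.75 for Nqo1, 0.45 for Txn1 and 1.05 for Aldh1a7. Cndp1 had −0.72 and Ctsl −0.52. Proteasome genes Psmb5 and Psma3 had 0.46 and 0.41, the transport genes Slc22a5 and Rhbg 0.84 and 0.81, and Anxa3 0.67. Lims1 had 0.41, Trappc3 0.32, Psmg1 −0.47 and Setd6 −0.50.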

How the results depend on the processing

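The count of 3852 genes was within 1.5 times of itself under scaling with DESeq2 size factors, the DESeq2 Wald test, limma voom, no filter, no mitochondrial genes, protein-coding genes only and 36 libraries with or without the score. It was 231 among genes with whole counts in 12 libraries (3171 tested), 42 with the score as covariate and 12 against a minimum size of 0.5. Without 1 library it ran from 3102 to 4137. Same-numbered sham and UNx libraries did not deviate together (r from −0.157 to 0.0285, and 0 correlated best with its own number). No pairing by number was seen, though a weak one could be missed, and a replicate block gave 3186 calls. The difference from 72 h was called for 137 genes with the score, 364 without a filter, 516 with a replicate block and 376 to 890 without 1 library. That from 48 h was called for 14 with the score, 5229 with the block and 5175 to 5730 without 1 library. In summed nuclei the replicate block, which is the labelled batch, gave 207 calls against 0, and leaving out 1 mouse gave 0 in each case. Bulk-called genes had the same sign in 57.9%, in 58.3% with the replicate block, and in 48.5% to 59.9% without 1 mouse, with 49.5% without sham mouse 1 and 48.5% without UNx mouse 2. Of 130 named genes called, 12 lost the call in the joint covariate fit and 109 with the score in 12 libraries, where 3 changed sign: Ccnd1 (0.005), B2m (0.22) and Col1a2 (−0.068). The median standard error over all genes tested was 0.19 with the score in 12 libraries, against 0.0896 without it. Scd1 ran from −0.756 without UNx replicate 4 to 0.753 without UNx replicate 3. For other changes the cause was not tested.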
